A study of Rattus norvegicus with 141 samples.

Results

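The 10 genes described here carry bile acid synthesis and transport: the synthesis enzymes Cyp7a1, Cyp8b1 and Cyp27a1, the transporters Slc10a1, Abcb11, Slc10a2, Slc51a and Slc51b, the carrier protein Fabp6 and the nuclear receptor Nr0b2. They were chosen by gene name from the 30562 genes of the tables, and all 10 were listed. A filter on low counts kept 7 of the 10 in liver, 2 in stomach and 6 in duodenum. The RNA came from wild-type adult Sprague-Dawley rats of both sexes on standard chow, given vehicle, 5 mg/kg microplastics (low dose) or 50 mg/kg (high dose). There were 46 liver, 48 stomach and 47 duodenum libraries, 141 in all, with 6 to 8 libraries in each sex and dose group of a tissue. The libraries were labelled with 3 batches. Each extract was ground from several small frozen pieces of tissue, and the homogenizer was rinsed between extracts of a treatment but taken apart only between treatments. Whether each library of a group stands for its own animal is not in the labels, and p-values below therefore measure only the spread between these samples, which may be technical. In bulk tissue, fewer cells of a type and less RNA per cell cannot be told apart.

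Bile acids are made from cholesterol in hepatocytes, where Cyp7a1 opens the main route, Cyp27a1 the alternative route, and Cyp8b1 sets how much cholic acid is formed. Abcb11 pumps bile salts into bile. In the ileum Slc10a2 takes them up at the brush border, Fabp6 binds them inside the enterocyte, and the Slc51a and Slc51b heterodimer lets them out at the basolateral side, after which Slc10a1 returns them to hepatocytes. Bile acids bind the receptor Nr1h4 (FXR), which raises Nr0b2, Abcb11, Fabp6, Slc51a and Slc51b, and Nr0b2 (SHP) in turn represses Cyp7a1 and Cyp8b1.

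RefSeq promoter sequences, from 250 bases before to 50 bases after the start of each gene (build GRCr8), were found for 8 of the 10 genes. FXR is known to bind inverted repeats of an AGGTCA-like site with a single base between them, and a relaxed form of that repeat, GGTNANTNACC (N is any base, and the motif reads the same on both strands), was searched. The 2 promoters that held it are shown with the motif in capitals, and the Slc10a2 promoter is shown because that gene gave the largest difference between the sexes among the members.
Fabp6: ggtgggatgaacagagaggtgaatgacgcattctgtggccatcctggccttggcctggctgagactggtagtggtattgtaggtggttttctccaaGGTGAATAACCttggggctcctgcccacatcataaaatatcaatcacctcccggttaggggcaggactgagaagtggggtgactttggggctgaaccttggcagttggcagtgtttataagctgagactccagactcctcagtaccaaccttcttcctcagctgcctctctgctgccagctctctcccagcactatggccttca
Slc51b: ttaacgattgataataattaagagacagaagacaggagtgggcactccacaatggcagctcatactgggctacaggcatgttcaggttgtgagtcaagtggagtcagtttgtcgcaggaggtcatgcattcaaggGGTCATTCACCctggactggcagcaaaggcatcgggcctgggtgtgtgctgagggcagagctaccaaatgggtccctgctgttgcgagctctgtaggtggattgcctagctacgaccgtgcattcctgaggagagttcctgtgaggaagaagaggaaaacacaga
Slc10a2: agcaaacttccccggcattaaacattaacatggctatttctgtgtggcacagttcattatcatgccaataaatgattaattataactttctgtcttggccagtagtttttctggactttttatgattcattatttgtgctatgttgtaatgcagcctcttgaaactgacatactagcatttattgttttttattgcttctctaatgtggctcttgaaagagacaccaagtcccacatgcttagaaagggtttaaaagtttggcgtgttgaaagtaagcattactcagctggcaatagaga
The Fabp6 promoter lies at chr10:28569678-28569977 on the minus strand, with the motif from -154 to -144 relative to the start. The Slc51b promoter lies at chr8:74835060-74835359 on the minus strand, with the motif from -115 to -105, and the Slc10a2 promoter at chr16:91087839-91088138 on the plus strand. The motif occurred in 90 of 33469 RefSeq rat promoters of this length, or 0.269%. The single half-site AGGTCA, searched on both strands, was in 16.2% of promoters and in those of Slc10a1, Slc51b and Cyp27a1, and its longer form CAAGGTCA, which overlaps it, was in 1.52% and in Cyp27a1. TTCNNNGAA was in 8.87% and CACGTG in 6.42% of promoters, and both were in Nr0b2, while AGATAA was in 11.6% and in none of the 8. Of these motifs none was found in the Slc10a2 window, which says only that these letters are not in those 300 bases.

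Levels are given in CPM, the deposited estimated counts scaled so that every library has the same total. Totals ran from about 6153370 to 23717000 counts in liver, 4947830 to 23940200 in stomach and 5470040 to 25503800 in duodenum, so that 3 counts correspond to 0.126 to 0.488 CPM, 0.125 to 0.606 CPM and 0.118 to 0.548 CPM. Ribosomal protein genes took 0.866% to 3.00% of counts in liver, 2.08% to 7.197% in stomach and 2.49% to 9.26% in duodenum. Hepatocyte markers were present in all liver libraries and gastric parietal and chief cell markers in all stomach libraries. Duodenum libraries carried proximal intestine markers, except male control replicate 1, which stood apart. It held 3521 CPM of Fabp6 with the proximal regulators Gata4 and Pdx1 at or near 0, so it was left out of every duodenum level and test below unless named, leaving 46 duodenum libraries. Levels are not compared between genes, since the tables give no gene lengths.

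The members fell into liver genes, intestinal genes and genes found in more than a single tissue. Cyp7a1, the rate-limiting enzyme of the main route, was at 9.75 to 325 CPM in liver, with a median of 79.1, and at most 0.117 CPM in stomach and 0.455 CPM in duodenum. Cyp8b1, the sterol 12-alpha-hydroxylase, was at 202 to 1081 CPM in liver, with a median of 487, and at most 0.304 CPM in stomach and 0.455 CPM in duodenum. Slc10a1 (NTCP), the sodium-dependent uptake carrier of hepatocytes, was at 391 to 747 CPM in liver, median 548, and at most 0.242 CPM in stomach and 1.37 CPM in duodenum. For these 3 genes the liver range lay above the other tissues, and the highest duodenum value of each came from female low dose replicate 1, in which the hepatocyte markers summed to 378 CPM, the highest of the duodenum libraries.

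Cyp27a1, the mitochondrial sterol 27-hydroxylase found in many tissues, was detected in every library. It ran from 195 to 383 CPM in liver (median 262), from 14.4 to 31.6 CPM in duodenum (median 20.0) and from 9.64 to 17.4 CPM in stomach (median 12.9). Liver stood apart, with a median 13.1-fold that of duodenum, while the duodenum and stomach ranges overlapped. Abcb11 (BSEP), the canalicular bile salt pump, was at 272 to 1094 CPM in liver (median 775), 0.914 to 11.1 CPM in duodenum (median 3.17) and 0 to 0.710 CPM in stomach (median 0.190). Its 3 ranges did not overlap, and the liver median was 244-fold the duodenum median. RefSeq lists a pseudogene within Abcb11 and a long noncoding RNA within Slc10a2, and with the strand setting of the counting not given in the sources used here their reads cannot be told apart.

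The intestinal members differed in where else they were seen. Slc51a, the alpha subunit of the basolateral exporter, was at 97.7 to 264 CPM in duodenum (median 181), at most 1.52 CPM in stomach and at most 0.188 CPM in liver. Slc51b, the beta subunit, was at 12.6 to 85.6 CPM in duodenum (median 34.5), at most 0.540 CPM in stomach and at most 0.0930 CPM in liver. For both subunits the duodenum stood apart from the other tissues. Slc10a2 (ASBT), the apical uptake carrier, was at 1.46 to 11.7 CPM in duodenum (median 5.33) and 0 to 7.11 CPM in liver (median 1.47), which overlapped, and at most 0.324 CPM in stomach. Fabp6, the ileal bile acid binding protein, was at 0.0536 to 4.48 CPM in duodenum (median 0.362), had counts in 2 liver libraries, up to 0.490 CPM, and in 9 stomach libraries, up to 3.35 CPM.

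Nr0b2, the repressor without a DNA-binding domain, was the member with no clear home among the 3 tissues. It was at 8.70 to 29.3 CPM in stomach (median 16.6), 4.06 to 92.9 CPM in liver (median 16.2) and 2.15 to 13.3 CPM in duodenum (median 4.88). The 3 ranges overlapped, and the widest was that of liver.

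**Figure D1:**
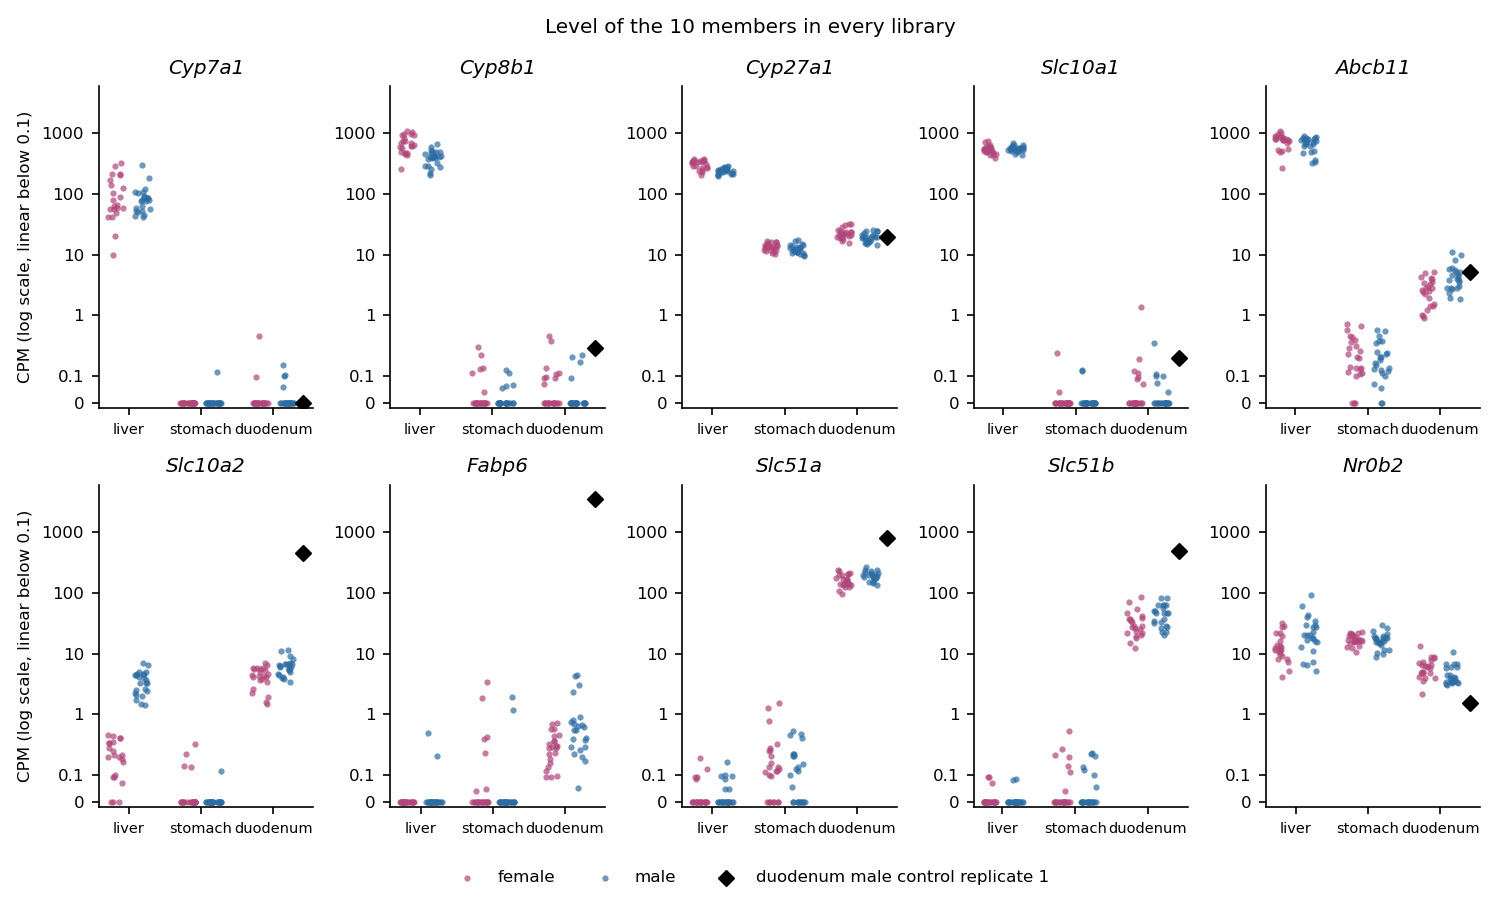
CPM of each of the 10 genes in every library, by tissue and sex, on a scale that is logarithmic above 0.1 CPM and linear below it; each point is a library and the diamond is duodenum male control replicate 1. Cyp7a1, Cyp8b1 and Slc10a1 separate liver from the other tissues, Slc51a and Slc51b separate duodenum, and liver Slc10a2 splits into males at 1.45 CPM and above and females at 0.463 CPM and below.

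Duodenum male control replicate 1 held the ileal set of bile acid genes. Fabp6 had 35957 counts there, or 3521 CPM, which was 785-fold the highest and 9723-fold the median of the other 46 libraries. Slc10a2 had 4728 counts, or 463 CPM, 39.7-fold the highest of the others. Slc51b was at 487 CPM and Slc51a at 789 CPM, 5.69-fold and 2.99-fold the highest of the others. These 4 genes, the uptake, binding and export steps of ileal bile acid handling, were thus each above every other duodenum library. The remaining members did not follow: Abcb11 was at 5.09 CPM, with 9 libraries above it, and Cyp27a1 at 19.8 CPM, with 25 above it. Nr0b2, at 1.57 CPM, was below all 46 other libraries and 0.321 of their median.

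Most markers of position along the gut moved with those genes in that library. Ileum markers summed to 222 CPM there and to 4.57 to 67.2 CPM in the others, with neurotensin (Nts) at 61.5 CPM against at most 3.41 CPM and proglucagon (Gcg) at 63.9 CPM against at most 9.25 CPM. Cubn, at 29.9 CPM, was within the range of the others (up to 33.9 CPM), and Fgf19 was at 0. Proximal markers summed to 63.4 CPM against 320 to 580 CPM, of which 61.4 CPM was Cybrd1, within the range of the others (27.4 to 149 CPM, median 45.4). Gata4, which maintains proximal identity, was at 0.294 CPM against 73.5 to 191 CPM, and Pdx1, a regulator of duodenum and pancreas, was at 0 against 33.9 to 65.5 CPM. Since the library was set apart for these values, they are given as a description.

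No member that could be tested passed the test in any comparison of doses, in any tissue, and Fabp6 passed the filter in none. In liver, 0 of 7 tested members were called for the low dose against control and 0 of 7 for the high dose against control (edgeR's quasi-likelihood test, Benjamini-Hochberg adjusted p under 0.05), where the background over 13130 genes was 0% for low dose and 0% for high dose. For high dose against low dose the count was again 0 of 7, with a background of 0%. No member had an unadjusted p under 0.05 in these 3 comparisons, and DESeq2 called 0 of 7 in each. Fitted log2 changes of the members ran from -0.14 to 0.23 for the low dose and from -0.30 to 0.31 for the high dose, with standard errors (SE) of 0.06 to 0.35. The median member change was 0.02 for the high dose, beside 0.00 over all genes tested.

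Among the liver synthesis enzymes, Cyp7a1 was at 20.5, 68.9 and 325 CPM (lowest, median, highest) in 16 controls, 9.75, 78.4 and 296 CPM in 16 low dose libraries, and 42.1, 85.9 and 211 CPM in 14 high dose libraries. The 3 dose groups overlapped over most of their range, and the change at the high dose was 0.02 ± 0.35 (log2, SE). Its 95% interval, from -0.66 to 0.70, was the widest of the synthesis enzymes at that dose. Cyp8b1 was at 253, 495 and 1081 CPM in controls, 256, 565 and 984 CPM at the low dose and 202, 435 and 1039 CPM at the high dose, again overlapping (high dose -0.18 ± 0.15). Cyp27a1 was the steadiest enzyme, at 208, 259 and 372 CPM in controls, 222, 266 and 383 CPM at the low dose and 195, 251 and 363 CPM at the high dose. Its change at the high dose was -0.02 ± 0.06, with a 95% interval from -0.15 to 0.10.

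Of the liver transporters, Slc10a1 was at 437, 534 and 649 CPM in controls, 391, 552 and 685 CPM at the low dose and 451, 552 and 747 CPM at the high dose. Abcb11 was at 319, 782 and 884 CPM in controls, 272, 751 and 1024 CPM at the low dose and 336, 788 and 1094 CPM at the high dose. Both genes overlapped across doses, with changes at the high dose of 0.09 ± 0.06 for Slc10a1 and 0.13 ± 0.12 for Abcb11. Slc10a2 is given by sex, since males and females differed in it at every dose. In males it was at 1.45, 3.51 and 6.54 CPM in controls, 1.49, 2.90 and 4.96 CPM at the low dose and 1.97, 4.20 and 7.11 CPM at the high dose, and in females no library of any dose exceeded 0.463 CPM.

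**Figure D2:**
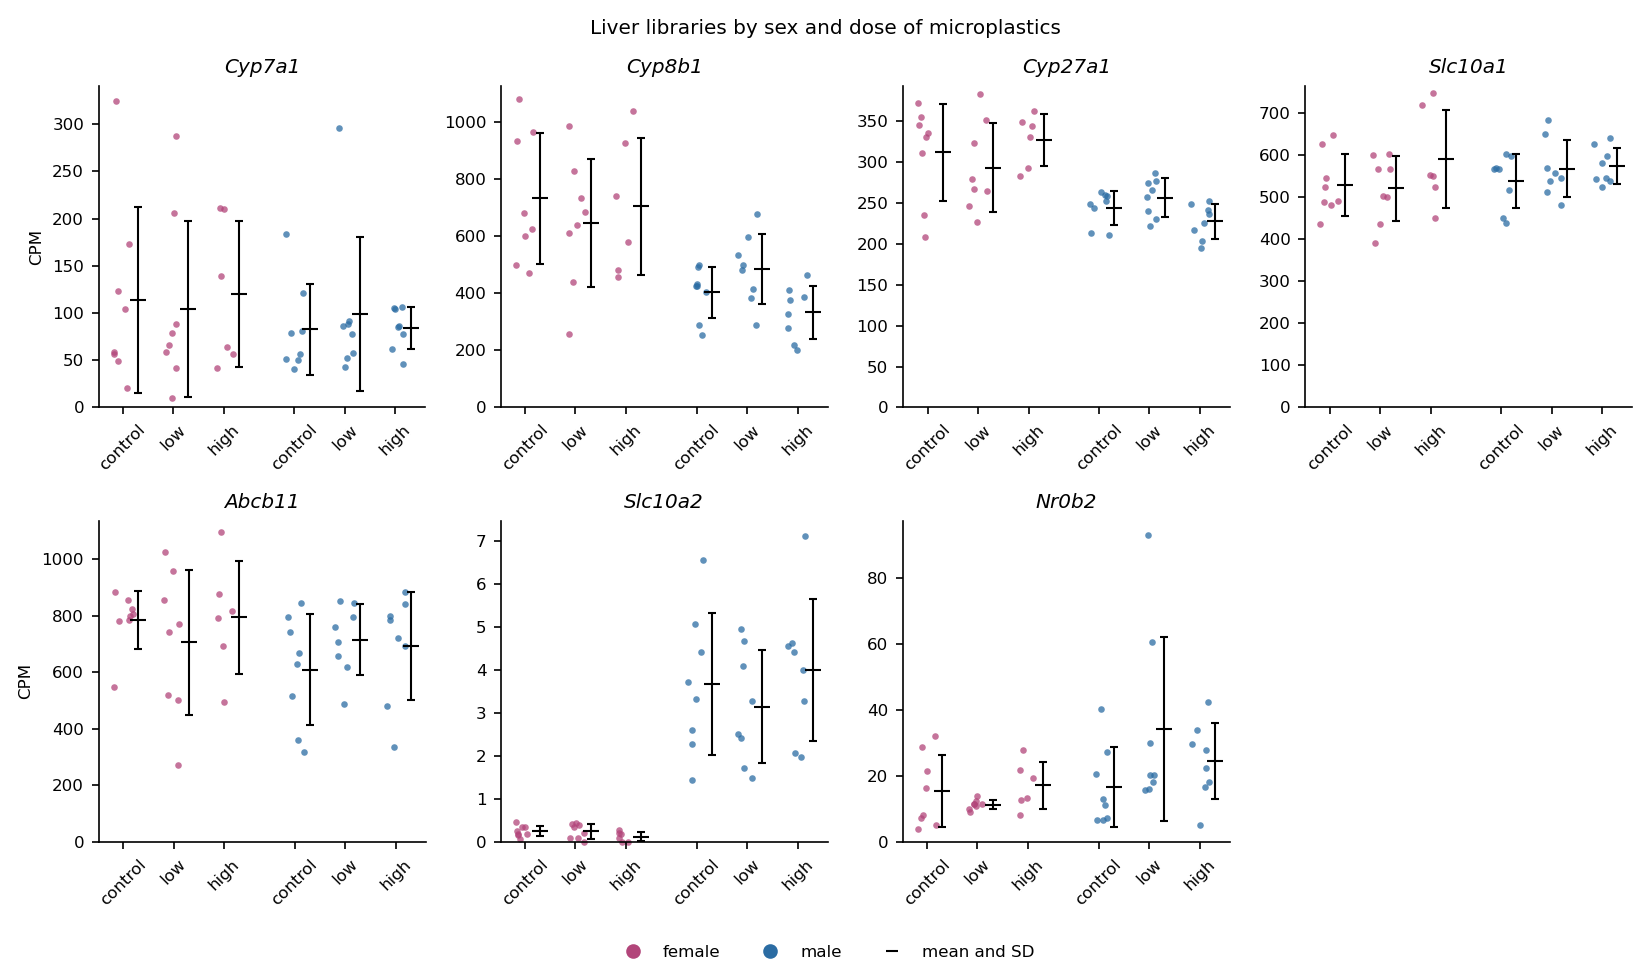
CPM of the 7 members tested in liver, per library, by sex and dose, with the mean and SD of each group. Dose groups overlap within each sex for all 7 genes, and Slc10a2 is at or below 0.463 CPM in every female group.

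Liver Nr0b2 was the member nearest to a dose difference between the sexes. Male controls were at 6.60, 12.1 and 40.4 CPM (lowest, median, highest), male low dose libraries at 15.8, 20.4 and 92.9 CPM and male high dose libraries at 5.12, 25.2 and 42.6 CPM. Female controls were at 4.06, 12.2 and 32.0 CPM, female low dose libraries at 9.03, 11.5 and 13.9 CPM and female high dose libraries at 8.24, 16.4 and 27.9 CPM. The low dose groups of the sexes did not overlap, while the control and high dose groups did. How many of all genes separate likewise was not counted. The male low dose libraries included 2 of batch 3, while the female ones were all of batches 1 and 2. At the high dose the male change of Nr0b2 was 0.80 (log2) and the difference between the sexes, female minus male, was -0.98, neither called. The low dose change was 0.91 ± 0.35 in males (edgeR adjusted p = 0.12) and -0.45 ± 0.35 in females (edgeR adjusted p = 0.633). The difference between them, female minus male, was -1.36 ± 0.49, with an unadjusted p of 0.00802 and an edgeR adjusted p of 0.0651, so it was not called.

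That interaction lay close to the threshold and its call turned on the tool and on single libraries. For sex by low dose, 0 of 7 liver members were called by edgeR against a background of 7.84%. At an unadjusted p under 0.05 there was 1 of 7, beside 4176 of the 13130 genes tested, and DESeq2 called Nr0b2 (-1.33, adjusted p = 0.0396). edgeR also called it without male control replicate 3 (-1.51, adjusted p = 0.0494), without male high dose replicate 6 (-1.36, 0.0431) and without female control replicate 8 (-1.49, 0.0423). Levels of Nr0b2 differed by batch. The 7 liver libraries of batch 3, of which 6 were male, were at 22.5 to 92.9 CPM. Those of batch 1 were at 4.06 to 32.0 CPM and those of batch 2 at 6.60 to 42.6 CPM. Within each sex, however, the control and low dose groups had the same batch make-up. Each male group held 2, 4 and 2 libraries of batches 1, 2 and 3, and each female group 4 of batch 1 and 4 of batch 2. The sex by low dose difference of Nr0b2 was -1.10 in batch 1 alone and -1.27 in batch 2 alone, neither called. Batch 3, with 1 female library, gives no within-batch value. For sex by high dose 0 of 7 members were called, with a background of 0%, none at an unadjusted p under 0.05, and DESeq2 called 0.

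In stomach, only Cyp27a1 and Nr0b2 passed the filter and neither was called. The count was 0 of 2 for the low dose (background 0%), 0 of 2 for the high dose (background 4.49%) and 0 of 2 for high against low dose (background 0.707%). Neither gene had an unadjusted p under 0.05 in these, and DESeq2 called 0 of 2 in each. Nr0b2 was at 10.1, 16.5 and 29.3 CPM (lowest, median, highest) in 16 controls, 8.70, 16.5 and 26.3 CPM in 16 low dose and 9.81, 16.8 and 21.8 CPM in 16 high dose libraries, which overlapped. Its change at the high dose was -0.23 ± 0.12 (edgeR adjusted p = 0.233). Cyp27a1 was at 9.64, 12.8 and 17.4 CPM in controls and 10.1, 13.0 and 17.1 CPM at the high dose, a change of 0.03 ± 0.08. The interactions of sex with dose gave 0 of 2 for the low dose (background 0%) and 0 of 2 for the high dose (background 0%), with none at an unadjusted p under 0.05 and 0 by DESeq2.

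In duodenum 0 of 6 tested members were called for the high dose, where the background was 12.1% of 15164 genes. With so few members that background would leave under 1 of them called, so the count says little about the members, and Fabp6 was not in the fit. For the low dose it was 0 of 6 against a background of 0%, and for high against low dose 0 of 6 against 0%. No member had an unadjusted p under 0.05 in these comparisons, and DESeq2 called none. Member changes at the high dose ran from -0.28 to -0.01 (log2), with a median of -0.02 beside -0.00 over all genes, and edgeR adjusted p-values from 0.346 to 0.991. The interactions of sex with dose gave 0 of 6 for the low dose (background 0%) and 0 of 6 for the high dose (background 0%), none at an unadjusted p under 0.05, and 0 by DESeq2.

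Slc10a2, the uptake carrier, was the duodenum member nearest to a dose difference. It was at 2.27, 5.18 and 11.7 CPM (lowest, median, highest) in 14 controls, 1.46, 4.81 and 9.16 CPM in 16 low dose libraries and 1.92, 5.72 and 10.9 CPM in 16 high dose libraries. The groups overlapped, and the low dose change was -0.34 ± 0.17 (edgeR adjusted p = 0.488). By sex, that change was -0.68 ± 0.25 in females (edgeR unadjusted p = 0.0102, adjusted p = 0.605) and -0.004 ± 0.24 in males. The difference between the sexes was -0.67 ± 0.35 and was not called. With male control replicate 1 put back among the controls, the high dose change of Slc10a2 read -1.42 and was called (edgeR adjusted p = 0.0308), against -0.02 ± 0.17 without it.

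Neither export subunit was called across doses. Slc51a was at 133, 166 and 232 CPM in controls, 125, 179 and 234 CPM at the low dose and 97.7, 188 and 264 CPM at the high dose, a change at the high dose of -0.02 ± 0.13 with a 95% interval from -0.27 to 0.24. Slc51b was at 20.1, 34.7 and 63.3 CPM in controls, 15.001, 33.2 and 85.6 CPM at the low dose and 12.6, 39.4 and 83.7 CPM at the high dose, a change of -0.02 ± 0.25. Its interval, -0.50 to 0.46, was wider than that of the alpha subunit. Nr0b2 was at 3.27, 5.97 and 10.6 CPM in controls and 2.15, 4.84 and 7.37 CPM at the high dose (-0.28 ± 0.19, edgeR adjusted p = 0.346), again overlapping. Abcb11 and Cyp27a1 had fitted differences of -0.01 ± 0.24 and -0.14 ± 0.11, neither called.

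**Figure D3:**
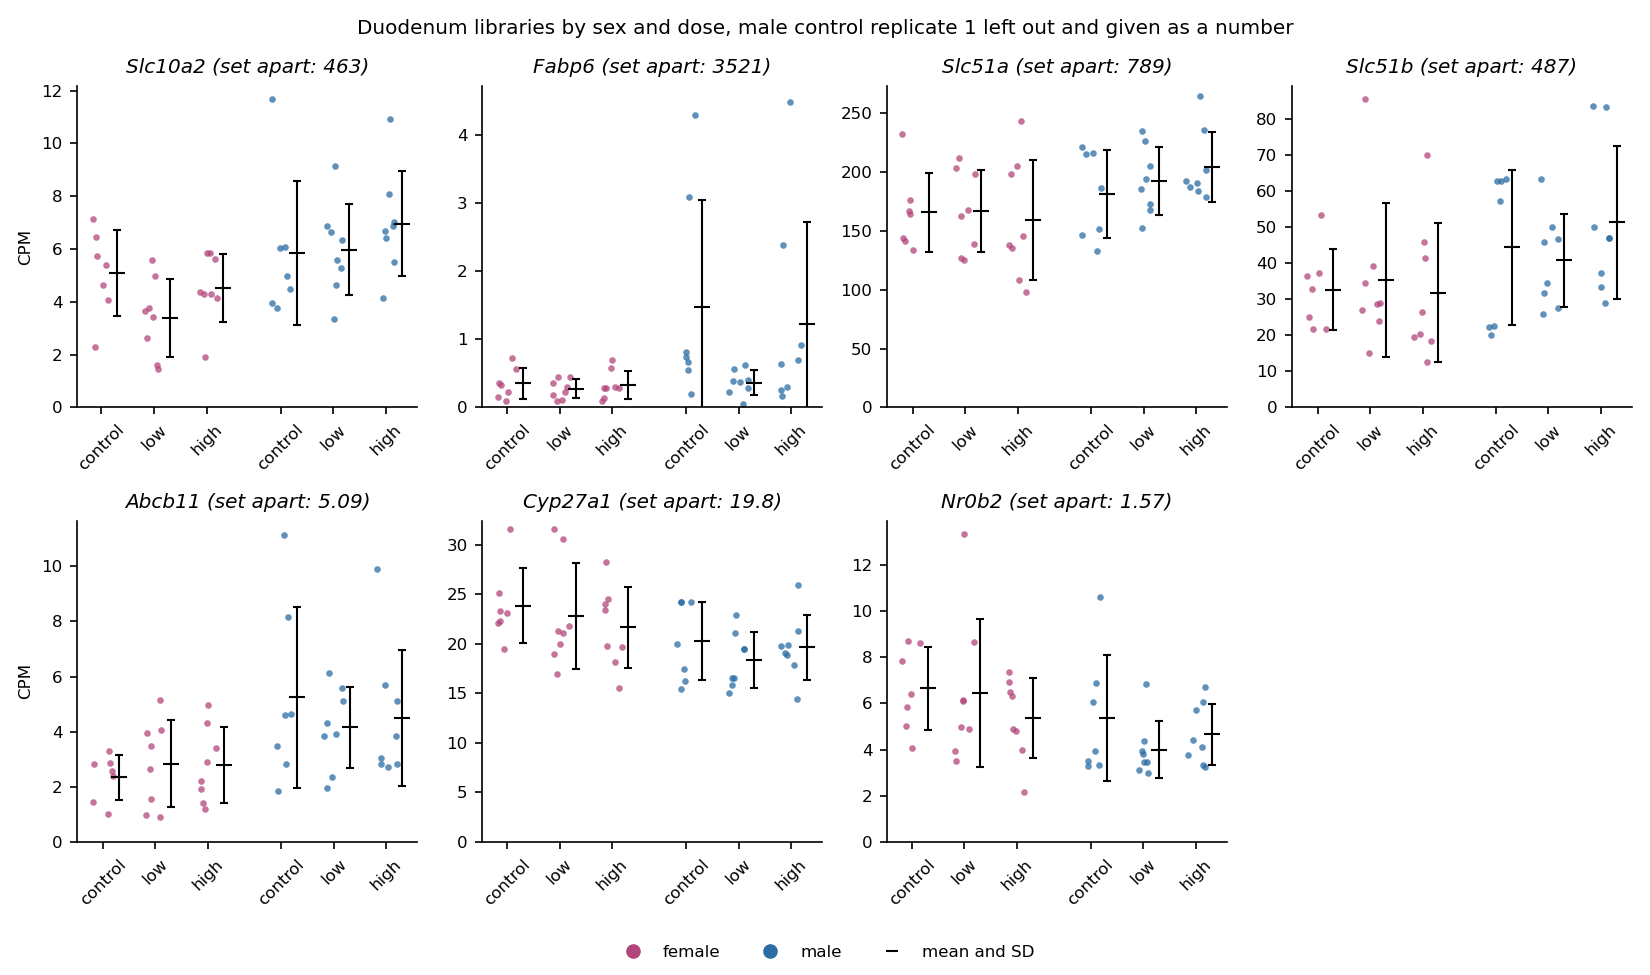
CPM per library of 7 members in duodenum, by sex and dose, with the mean and SD of each group (the part of an SD bar below 0 is not drawn); the value of male control replicate 1 is given above each panel and is not drawn. Dose groups overlap for every gene, and Fabp6 is at most 4.48 CPM in the 46 libraries drawn, against 3521 CPM in the library set apart.

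**Figure D4:**
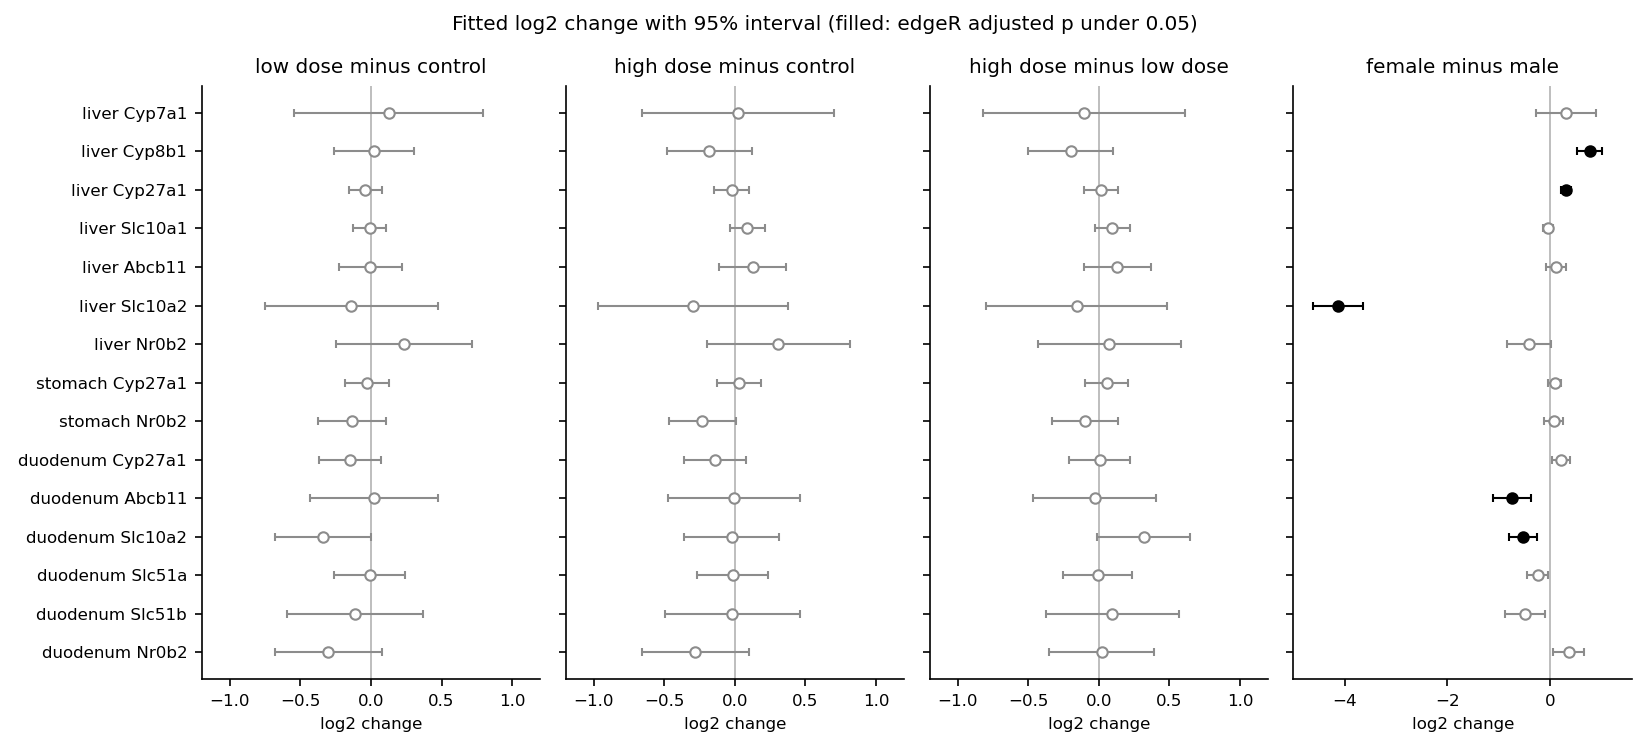
Fitted log2 change of each tested member with its 95% interval, by tissue, for the low dose, the high dose, high against low dose and females against males; filled points passed the test. The filled points are all in the comparison of the sexes: Slc10a2, Cyp8b1 and Cyp27a1 in liver and Abcb11 and Slc10a2 in duodenum. Liver Slc10a2 passed the filter on low counts only through male libraries, so its filled point was bound to arise.

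In liver the sexes differed for 3 of the 7 tested members, 2 higher and 1 lower in females, against a background of 32.0% of 13130 genes. The lower gene, Slc10a2, passed the filter on low counts only through male libraries, so its call adds nothing to that count. Cyp8b1, which directs synthesis toward cholic acid, was at 256, 660 and 1081 CPM (lowest, median, highest) in 22 female libraries and 202, 413 and 676 CPM in 24 male libraries. Of the females, 21 of 22 were over the male median and 11 were over the highest male, although the groups overlapped. Cyp8b1 was 1.71-fold higher in females (0.78 ± 0.13, log2 and SE, edgeR adjusted p = 2.57e-06). The change was 0.73 in batch 1, 0.70 in batch 2 and 0.85 ± 0.21 in controls alone (edgeR adjusted p = 0.00234).

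Cyp27a1, the first enzyme of the alternative route, was at 208, 327 and 383 CPM in females and 195, 246 and 287 CPM in males. In 18 of 22 females it was over the male median, and in 14 over the highest male. The gene was 1.24-fold higher in females (0.31 ± 0.05, edgeR adjusted p = 3.99e-06), with 0.35 in batch 1, 0.28 in batch 2 and 0.28 ± 0.09 in controls alone (edgeR adjusted p = 0.0146). Cyp7a1 spread too widely for its sexes to be separated. It was at 9.75, 72.5 and 325 CPM in females and 41.0, 79.6 and 296 CPM in males, and its difference of 0.32 ± 0.30 was not called (edgeR adjusted p = 0.467). With a 95% interval from -0.27 to 0.90, a female excess of the size seen for Cyp8b1 lay within what these data allow for Cyp7a1.

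Among the members the largest difference between the sexes was in liver Slc10a2, at low counts. Females were at 0, 0.205 and 0.463 CPM (lowest, median, highest), from 0 to 6 counts a library, and males at 1.45, 3.51 and 7.11 CPM, from 15 to 87 counts. All 24 males lay above all 22 females, and 3 female libraries had 0 counts. The fitted difference was -4.13 ± 0.25 (95% interval -4.61 to -3.64), or 17.5-fold lower in females. It was -5.62 in batch 1, -3.99 in batch 2 and -3.92 ± 0.40 in controls alone. The gene passed the filter on low counts through the male libraries, so that of the members kept it was bound to differ. Its values are therefore given as a description, without a p-value.

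Slc10a2 in the liver is known from the bile duct cells, or cholangiocytes, and some of their markers were also lower in females. The markers summed to 6.50 to 16.6 CPM in females (median 10.4) and 9.05 to 27.7 CPM in males (median 17.5), which overlapped. Of 4 tested, 2 were lower in females, Epcam by a log2 difference of -1.06 and Spp1 by -0.66, while Cftr (-0.51, edgeR adjusted p = 0.119) and Sox9 (0.14, edgeR adjusted p = 0.605) were not called, and none of the 5 in the table had a median of 0. With the mean log2 CPM of the tested markers as a covariate, an alternative added after the data were seen, the fitted Slc10a2 difference was -4.23. The transcripts differed as well: in males 87.9% of Slc10a2 counts were assigned to ENSRNOT00000100219, which took 99.1% of them in duodenum, while in females 66.7% of only 60.1 counts were assigned to ENSRNOT00000113335.

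The remaining liver members were not called between the sexes. Slc10a1 was at 391, 535 and 747 CPM in females and 438, 562 and 685 CPM in males (-0.03 ± 0.05, edgeR adjusted p = 0.667), with an interval from -0.14 to 0.07. Abcb11 was at 272, 795 and 1094 CPM in females and 319, 714 and 884 CPM in males (0.12 ± 0.10, edgeR adjusted p = 0.379). Nr0b2 was at 4.06, 12.0 and 32.0 CPM in females and 5.12, 20.4 and 92.9 CPM in males (-0.40 ± 0.22, edgeR adjusted p = 0.164), with 19 of 24 males over the female median. All 3 overlapped between the sexes. The ribosomal protein share of counts had a median of 1.42% in female and 1.02% in male livers, and after adjustment for that share Abcb11 (0.26) and Nr0b2 (-0.51) were also called. How many of all genes were called in the adjusted fit is not reported here. Nr0b2 was called as well in the fit without a batch term (-0.75, edgeR adjusted p = 0.0135). Liver libraries of females also held Cpa1, a carboxypeptidase on the acinar list (that list summed to 10.8 to 320 CPM in females and 0 to 2.41 CPM in males), while Pnlip, Ctrb1 and Prss2 had medians of 0; its part in these results was not tested.

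In duodenum 2 of 6 tested members were lower in females and none higher, against a background of 5.15%. Abcb11 was at 0.914, 2.65 and 5.15 CPM (lowest, median, highest) in 23 female libraries and 1.84, 3.91 and 11.1 CPM in 23 male libraries. The groups overlapped, with 20 of 23 males over the female median, and the gene was 1.66-fold lower in females (-0.73 ± 0.19, edgeR adjusted p = 0.0179). Slc10a2 was at 1.46, 4.29 and 7.14 CPM in females and 3.35, 6.08 and 11.7 CPM in males. Also overlapping, it was 1.43-fold lower in females (-0.52 ± 0.14, edgeR adjusted p = 0.0231), a call that was lost without male control replicate 7 (-0.45, adjusted p = 0.0514). With male control replicate 1 included the Slc10a2 difference read -1.42 (edgeR adjusted p = 0.0257).

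Neither call held within a batch or in controls alone, where fewer libraries were compared. Abcb11 read -1.03 in batch 1, -0.54 in batch 2 and -1.13 in controls (edgeR adjusted p = 0.479), and Slc10a2 read -0.34, -0.70 and -0.21 (edgeR adjusted p = 0.918 in controls). All 6 members had an unadjusted p under 0.05, as did 3739 of the 15164 genes tested. The 4 members not called were Slc51b at -0.48 ± 0.20 (edgeR adjusted p = 0.126), Slc51a at -0.24 ± 0.10 (0.151), Nr0b2 at 0.36 ± 0.16 (0.149) and Cyp27a1 at 0.22 ± 0.09 (0.131). The median over the 6 was -0.36, beside -0.00 over all genes. With the mean log2 CPM of the enterocyte markers as a covariate all 6 were called. The share of all genes called in that fit is not reported here, so the count cannot be set against a background. Sums of those markers overlapped between the sexes, at 3174 to 18602 CPM in females and 4092 to 19036 CPM in males, with 0 of 8 called. Pancreatic acinar markers differed: 6 of 6 were higher in females, with sums of 1.13 to 30031 CPM (median 1211) in females and 0.283 to 5226 CPM (median 12.5) in males, and their part in these differences was not tested.

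Fabp6 failed the filter in duodenum, and its values were uneven within males. Females were at 0.0920, 0.287 and 0.732 CPM and males at 0.0536, 0.562 and 4.48 CPM. The male spread came from 4 libraries between 2.38 and 4.48 CPM, namely high dose replicates 8 and 5 and control replicates 4 and 2, while the next male was at 0.912 CPM. Fitted without the filter, Fabp6 was lower in females by -1.42 ± 0.36 on the log2 scale (edgeR adjusted p = 0.0201), and its low dose change was -1.16 ± 0.46 (edgeR adjusted p = 0.525).

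In stomach, 0 of 2 tested members were called between the sexes, against a background of 1.99%, with none at an unadjusted p under 0.05 and 0 by DESeq2. Cyp27a1 was at 10.4, 13.5 and 17.1 CPM in 24 females and 9.64, 12.3 and 17.4 CPM in 24 males (0.10 ± 0.07), and Nr0b2 at 10.6, 16.6 and 22.8 CPM in females and 8.70, 16.6 and 29.3 CPM in males (0.07 ± 0.10). Both genes overlapped between the sexes.

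The other genes of the pathway were taken from a list of 46, of which 42 were in the tables. In liver, 38 were tested and 11 were higher and 12 lower in females, where 32.0% of all genes tested were called. Among 12 synthesis and conjugation enzymes 2 were higher and 5 lower. Akr1d1, the 5-beta-reductase of the sterol nucleus, was at 335 ± 68.8 CPM (SD) in females and 1086 ± 400 CPM in males (-1.74 ± 0.15, edgeR adjusted p = 2.16e-13). Cyp7b1, the oxysterol hydroxylase of the alternative route, was lower in females by -1.19 on the log2 scale, and Baat, which joins bile acids to taurine and glycine, by -0.93. Slc27a5, the bile acid CoA ligase, was higher (0.69). Thus both directions occurred among the enzymes.

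Of 11 other liver transporters 6 were higher and 4 lower in females. The export pump Abcb1a (0.83) and the organic anion uptake carrier Slco1b2 (0.60) were higher, and the carriers Slco1a5 (-0.56) and Slco1a1 (-0.42) lower. Receptors and regulators gave 0 higher and 2 lower of 11. Nr1h4, the bile acid receptor FXR, was at 68.8 ± 14.9 CPM (SD) in females and 80.2 ± 16.8 CPM in males (-0.33 ± 0.08, edgeR adjusted p = 0.00125), and Nr1i3 (CAR), a receptor of xenobiotic response, was the lowest of them at -1.73. Fgfr4, the receptor of the ileal hormone, was not called (-0.13, edgeR adjusted p = 0.185).

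Detoxification genes gave 3 higher and 1 lower of 4. Sult2a1, a sulfotransferase of bile acids and steroids, was at 2982 ± 1320 CPM (SD) in females and 401 ± 303 CPM in males (2.77 ± 0.21, edgeR adjusted p = 3.85e-15). The 2 gene identifiers that share the symbol Sult2a2 ran from 1.98 to 525 CPM and from 0 to 343 CPM in females, and were at most 0.407 and 0.426 CPM in males. Since they are near copies by name, how reads were split between them is uncertain. Ephx1, the microsomal epoxide hydrolase, was lower in females (-0.92).

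Across doses, 0 of 38 liver pathway genes were called by edgeR for the low dose, 0 for the high dose and 0 between doses. For sex by low dose 1 of 38 was called, against 7.84% of all genes tested, namely Amacr, the racemase that prepares the side chain for shortening. Male Amacr was at 321, 588 and 852 CPM (lowest, median, highest) in controls and 253, 396 and 450 CPM at the low dose, while female Amacr was at 213, 286 and 427 CPM and 221, 350 and 462 CPM. Males at the low dose were thus toward the low end of male controls, and the female groups overlapped. The change was -0.81 ± 0.20 in males and 0.22 ± 0.20 in females, and the difference was 1.04 ± 0.28 (edgeR adjusted p = 0.0369). The call held in 33 of 46 fits that each left out a library.

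In duodenum 3 of 31 pathway genes were called for the high dose, all lower, against a background of 12.1% of 15164 genes. Slc27a2, an acyl-CoA synthetase that also acts on bile acid precursors, was at 0.352, 8.01 and 37.8 CPM in controls and 0.590, 2.35 and 19.9 CPM at the high dose (-1.70 ± 0.47, edgeR adjusted p = 0.0234). Nr1i2, the pregnane X receptor, was at 36.7, 45.7 and 68.9 CPM and 23.5, 38.2 and 53.2 CPM (-0.31 ± 0.09, edgeR adjusted p = 0.0298). Both genes overlapped between dose groups, and neither was called in either batch alone, after adjustment for the ribosomal protein share or with enterocyte markers as a covariate. Nr1i2 was also not called without a batch term. Without female control replicate 1 both calls were lost, and that of Nr1i2 was also lost without female control replicate 6, male control replicates 5 and 6, male high dose replicate 5 or female high dose replicates 2 and 8, each left out in turn. Between the sexes Klb (0.55) and Atp8b1 (0.26) were higher in females and Amacr (-0.44) and Ephx1 (-0.29) lower.

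In stomach, 29 pathway genes were tested and 2 were called for the high dose, against a background of 4.49% of 15140 genes. Hsd3b7, the dehydrogenase acting after Cyp7a1, was at 10.1, 13.9 and 18.5 CPM in controls and 13.6, 16.4 and 20.8 CPM at the high dose (0.23 ± 0.07, edgeR adjusted p = 0.0437). Its dose groups overlapped. The call was lost in a batch alone, without a batch term, without the filter on low counts and after adjustment for the ribosomal protein share. Of 48 fits that each left out a library, Hsd3b7 was called in 30. Fgf19, an ileal hormone that signals to the liver, was at 0 in every liver and duodenum library and had a count in 13 stomach libraries, up to 0.404 CPM.

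Members were paired by role, and the link between library values was measured after the group and batch means were removed, over 46 libraries of a tissue. The 7 pairs tested share the depth of each library, so depth moves with both values of a pair. In liver Cyp7a1 and Cyp8b1, both targets of Nr0b2 repression, moved together, with Pearson's r of 0.57 (permutation adjusted p = 0.00028) and Spearman's rho of 0.45 (permutation adjusted p = 0.00675). Without the 2 libraries farthest from the median of Cyp7a1, r was 0.41. Within batch 1 (15 libraries) r was 0.50 (permutation adjusted p = 0.193) and within batch 2 (24 libraries) 0.70 (permutation adjusted p = 0.000595). Nr0b2 itself was not linked to either enzyme past the threshold, with r of -0.12 for Cyp7a1 and 0.14 for Cyp8b1 (permutation adjusted p = 0.409 for each).

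Slc10a1 and Nr0b2 gave r of 0.37 (permutation adjusted p = 0.0288) and rho of 0.34 (permutation adjusted p = 0.0496), with 0.45 without the 2 farthest libraries. Within batches that pair read 0.22 (permutation adjusted p = 0.667) and 0.47 (permutation adjusted p = 0.0512), neither past the threshold with the fewer libraries of a batch. Cyp7a1 with Cyp27a1 (r of 0.21) and Abcb11 with Nr0b2 (r of -0.20) each had a permutation adjusted p of 0.258. In duodenum the export subunits Slc51a and Slc51b moved together most closely, with r of 0.89 and rho of 0.90 (permutation p = 1e-05, the smallest that 100000 permutations can give, adjusted 7e-05). The value was 0.87 without the 2 farthest libraries, 0.79 in batch 1 (17 libraries) and 0.95 in batch 2 (22 libraries).

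**Figure D5:**
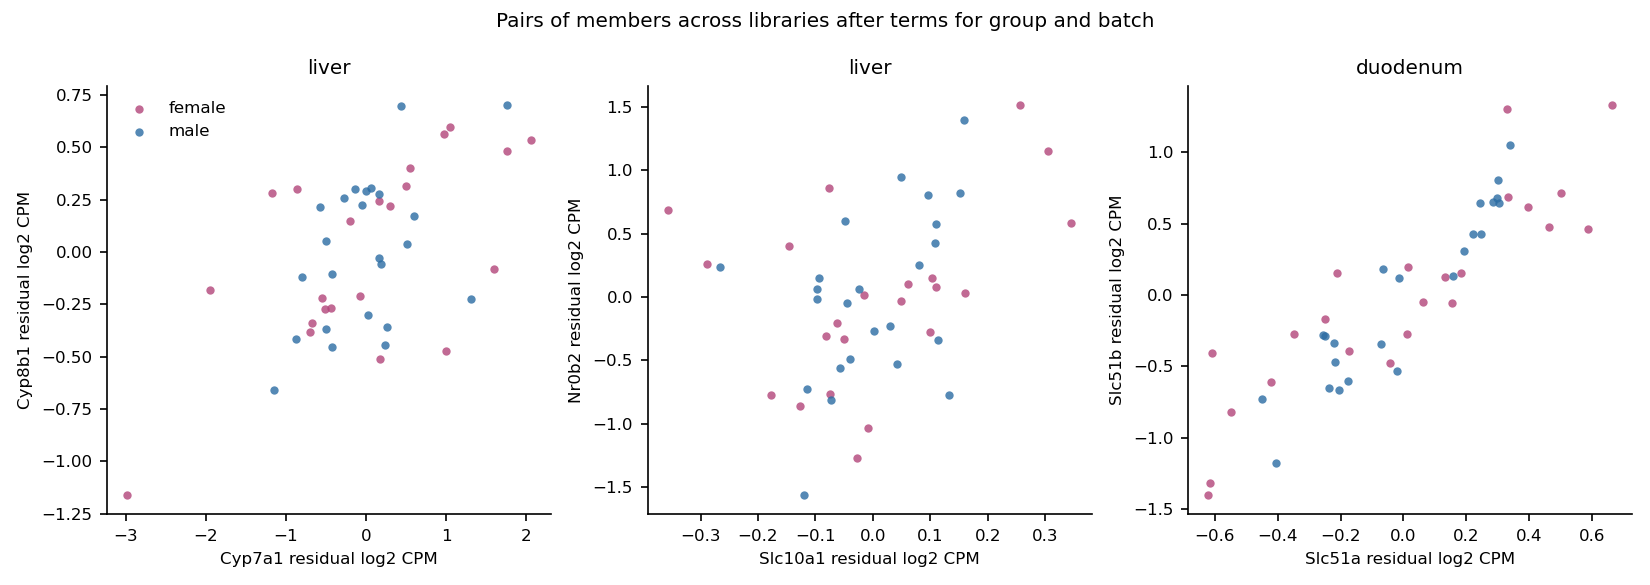
Log2 CPM of a pair of genes per library after removing group and batch means, for Cyp7a1 and Cyp8b1 and for Slc10a1 and Nr0b2 in liver and for Slc51a and Slc51b in duodenum; each point is a library, coloured by sex. The Slc51 subunits lie close to a line (r of 0.89), while the liver pairs scatter widely (r of 0.57 and 0.37).

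The genes whose residual values most resembled each member were ranked by Spearman's rho over 46 libraries, as a description. In liver Abcb11 was closest to Dnajc13 (0.93), Usp9x (0.92) and Nipbl (0.92), and Slc10a1 to Pls3 (0.71), Ranbp10 (0.68) and Cds2 (0.65). Cyp8b1 was closest to Ackr2 (0.76), Ift88 (0.59) and Clmn (0.55), and Nr0b2 to Rasd1 (0.68), Hes1 (0.61) and Rpl14l1 (0.54). Cyp7a1 was closest to Zfp948 (0.59), Gca (0.58) and Dhx35 (0.57), Cyp27a1 to Tmc8 (0.57), Aldoc (0.57) and Slc26a1 (0.56), and Slc10a2 to Sacm1l (0.58), Ppp4r3b (0.56) and Ppm1b (0.55). In duodenum Slc51a was closest to Mdh2 (0.95), Slc25a5 (0.95) and Dgat1 (0.94), and Slc51b to Pla2g12b (0.94), C1h11orf86 (0.93) and Plpp1 (0.92), and all 6 values were above the 0.90 between the subunits.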

How the data were processed

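The labels describe polyA RNA libraries. The deposited gene tables hold estimated counts, not normalized; per the submitters' processing notes the tools were Salmon 1.10.3 and STAR 2.7.11b, Trim Galore 0.6.10 with cutadapt 4.9, UMI-tools 1.1.5, and for quality reports MultiQC 1.28 and FastQC 0.12.1, with build mRatBN7.2. Annotation release, strand setting and duplicate handling: not given in the sources used here. From these files, estimated counts were rounded and fitted per tissue in edgeR 4.0.16 (R 4.3.3, limma 3.58.1): quasi-likelihood test, TMM scaling, sex and dose groups plus batch, genes kept by filterByExpr (count 10, total 15), Benjamini-Hochberg adjustment over all genes tested, threshold 0.05. Differences between the sexes are means over 3 dose levels. Intervals use 1.96 SE and cover the fitted spread; CPM precision is limited by counting error. DESeq2 1.42.0, other scalings, covariates, single batches, a replicate block and leaving out each library were alternatives. Correlations used residual log2 CPM (prior count 2) and 100000 permutations. Figures used Python 3.11.15, pandas 2.3.3 and matplotlib 3.10.9.

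All 10 members are named. Other pathway genes are named if called in a dose comparison, among the 4 called genes of smallest p in their list between the sexes, or Nr1h4, Fgfr4 or Fgf19; a pathway gene that is counted but not named is not reported here. The 3 genes most like a member were ranked by rho over all tested genes of a tissue. The members and lists were chosen with earlier results of these data known. Batch 3 was too small for fits of its own. The fits were tested on simulated data.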

Additional observations from a re-analysis of the deposited data

Results flagged for a closer look

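Of 96 groups of libraries examined, 11 held a library far from the rest of its group by Dixon's test; chance alone gives about 1 in 20 groups. Of the 11, 4 came from duodenum male control replicate 1, which had already been set apart for its ileal genes, so they add nothing to that choice and are not to be read against chance: Fabp6 at 3521 CPM (others 0.196 to 4.30), Slc10a2 at 463 CPM (others 3.75 to 11.7), Slc51a at 789 CPM (others 133 to 221) and Slc51b at 487 CPM (others 20.1 to 63.3). Elsewhere in duodenum, Abcb11 was at 9.90 CPM in male high dose replicate 8 (others 2.73 to 5.70) and Slc10a2 at 1.92 CPM in female high dose replicate 4 (others 4.15 to 5.84). Slc51b was at 85.6 CPM in female low dose replicate 7 (others 15.001 to 39.2) and Nr0b2 at 6.84 CPM in male low dose replicate 8 (others 3.00 to 4.39). In liver Cyp7a1 was at 296 CPM in male low dose replicate 1 (others 42.6 to 91.4) and Abcb11 at 549 CPM in female control replicate 4 (others 780 to 884). In stomach Cyp27a1 was at 16.6 CPM in male high dose replicate 8 (others 10.1 to 13.2).

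Liver Amacr differed between the sexes in its low dose change by the interaction term of the fit, by 1.04 on the log2 scale. The call was lost in edgeR with no batch term, with the replicate block, in either batch alone and after adjustment for the ribosomal protein share.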

How the results depend on the processing

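Over 5025 recomputed values, 5006 kept their side of the threshold, 7 lost it and 12 gained it. None of the called values changed direction, and 330 values that were not called changed sign. Most of the 5025 came from fits that left out a single library and so shared nearly all their data with the main fit. Most also belonged to members that were not called. In the other settings the called duodenum members lost the threshold in 6 of 22 values and the called liver members in 0 of 30. In liver, 5 members differed between the sexes after adjustment for the ribosomal protein share, against 3. Both counts include Slc10a2, which was bound to differ. The share of all genes called in the adjusted fit is not reported here, so the count of 5 cannot be set against a background. Sex by low dose gave 1 liver member with DESeq2 and 0 to 1 when single libraries were left out. In duodenum the high dose gave 1 member with male control replicate 1 included. The duodenum count between the sexes, 2, became 0 in batch 1 alone, 0 in batch 2 alone, 0 in controls only, 6 with the enterocyte covariate, and 1 to 2 when single libraries were left out. For the fit with the enterocyte covariate the share of all genes called is likewise not reported here. The correlation of Cyp7a1 and Cyp8b1 was 0.50 in batch 1, and that of Slc10a1 and Nr0b2 was 0.22 in batch 1 and 0.47 in batch 2. With group and batch means left in, Cyp7a1 and Cyp8b1 had r of 0.37 (permutation adjusted p = 0.0233) and rho of 0.25 (permutation adjusted p = 0.213). With a prior count of 0.5, Slc10a1 and Nr0b2 had a permutation adjusted p of 0.0293 for r and 0.0535 for rho. With the replicate block the counts between the sexes were 3 in liver and 2 in duodenum, and the block changed no call of a member. Libraries with the same number had a mean correlation of residuals of -0.010 in liver, 0.040 in stomach and 0.004 in duodenum. Pairs with different numbers had -0.022, -0.028 and -0.025, so same-number pairs were slightly higher in each tissue, a difference that was not tested. Depth limits Fabp6 in duodenum and Slc10a2 in female liver, where counts were near 0. Single batches hold fewer libraries, and the cause of the other shifts was not tested.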
